A study of Drosophila melanogaster with 9 samples.

Results

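Serine/arginine-rich (SR) splicing factors are phosphorylated by a small set of protein kinases. The genes of 3 of these kinases, *SRPK*, *Srpk79D* and *Doa*, were taken by FlyBase symbol from the 17575 genes of the count table, and all 3 passed the filter on low counts that left 14941 genes to test. The series holds rRNA-depleted total RNA from pooled testes of males aged 1 to 3 days, with 3 biological replicates each of a control, a *U2af38* RNAi and an *SRPK* RNAi genotype. Both knockdowns were driven by *bam-GAL4*, which acts in late spermatogonia and spermatocytes (SCs) and not in germline stem cells or the first spermatogonial stages, and the controls came from the driver stock itself or were brothers from the crosses. For each gene 2 RNAi lines were described and 1 was chosen for later work, and which of them was sequenced is not given in the sources used here. *U2af38* encodes the small subunit of the U2AF complex, which recognises the 3′ splice site. In *U2af38* RNAi germ cells arrest as SCs before meiosis, whereas *SRPK* RNAi germ cells look normal in morphology but give immotile sperm.

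SR proteins carry a domain rich in arginine-serine dipeptides. Kinases of the SRPK family phosphorylate this domain in the cytoplasm, which allows nuclear import by a dedicated transportin, and kinases of the Clk family phosphorylate it further in the nucleus. In flies, *SRPK* is known for its role in the oocyte, where it acts in chromatin and spindle organisation. *Srpk79D* encodes the other SRPK-family kinase and is known from neurons, where it keeps the active zone protein Bruchpilot from clumping in axons. *Doa* encodes the fly Clk kinase, named for Darkener of apricot, and acts in sex-specific splicing of *doublesex* through Transformer and Transformer 2.

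The genes differ in size and structure. In the dm6 coordinates of the table, *SRPK* (FBgn0286813) spans chr2R:15380724-15387851 on the plus strand, with 5540 bp of merged exons in 6 blocks, 5 annotated transcripts and no intron longer than 989 bp. *Srpk79D* (FBgn0025702) lies at chr3L:22273985-22284335 on the plus strand, with 6233 bp of merged exons in 9 blocks, 11 transcripts and a longest intron of 3384 bp. *Doa* (FBgn0265998) is the largest, at chr3R:28888073-28922772 on the plus strand, with 13651 bp of merged exons in 24 blocks, 15 transcripts from 6 start sites and a longest intron of 18469 bp. Counts are summed over all transcripts of a gene, so a switch between transcripts could not be read from them. No annotated gene overlapped a kinase on the same strand, and the counting used strand.

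Between 18497748 and 30002574 fragments were assigned to genes per library, and levels are given as CPM, counts scaled to a common library size after TMM normalization, which sets libraries to the bulk of their genes. At these depths 3 fragments correspond to 0.111 to 0.170 CPM, far below every kinase value. The control libraries had 37.5, 42.3 and 41.1 CPM of *U2af38*, and the *U2af38* RNAi libraries 2.46, 4.38 and 3.10 CPM. This fall of 3.59 on the log2 scale (adjusted p = 3.22e-10, edgeR) matches the label of those libraries. All 11 spermatid markers were lower in *U2af38* RNAi than in control, at a summed level of 2541 to 2643 CPM against 8081 to 9454 CPM in control and 6329 to 7709 CPM in *SRPK* RNAi. Of all tested genes, 37.5% were called lower in *U2af38* RNAi than in control. With library size alone 9 of the 11 markers and 3451 of the 14941 tested genes were called lower, and *p-cup* had a value of 0.10. Transcripts of the accessory gland, a neighbouring organ of the male tract, varied strongly within genotypes, between 9.94 and 438 CPM in control, 9.34 and 166 CPM in *U2af38* RNAi and 14.9 and 975 CPM in *SRPK* RNAi for the summed list. In bulk testis, fewer cells of a type and less RNA per cell cannot be told apart.

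With TMM scaling, *SRPK* had the largest log2 fold change of the 3 kinases in both knockdowns. In *U2af38* RNAi this order depended on the scaling, since ribosomal protein genes as the reference gave -1.16 for *Srpk79D* and 0.78 for *SRPK*. The *SRPK* level in control testes was 274, 248 and 281 CPM. In *U2af38* RNAi it stood at 611, 589 and 658 CPM, and in *SRPK* RNAi at 69.0, 64.5 and 68.1 CPM. The 3 genotypes did not overlap, with every *U2af38* RNAi library above and every *SRPK* RNAi library below all controls, as was the case in one direction or the other for 84.7% of the tested genes in *U2af38* RNAi, 50.5% in *SRPK* RNAi and 81.8% between the knockdowns. The low level in *SRPK* RNAi checks the label of those libraries, and 25.1% of the control level remained (log2 fold change -1.99, SE 0.07, adjusted p = 4.77e-09, edgeR). In that comparison 2.13% of the tested genes, 318 in number, fell further than the targeted gene.

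**Figure D1:**
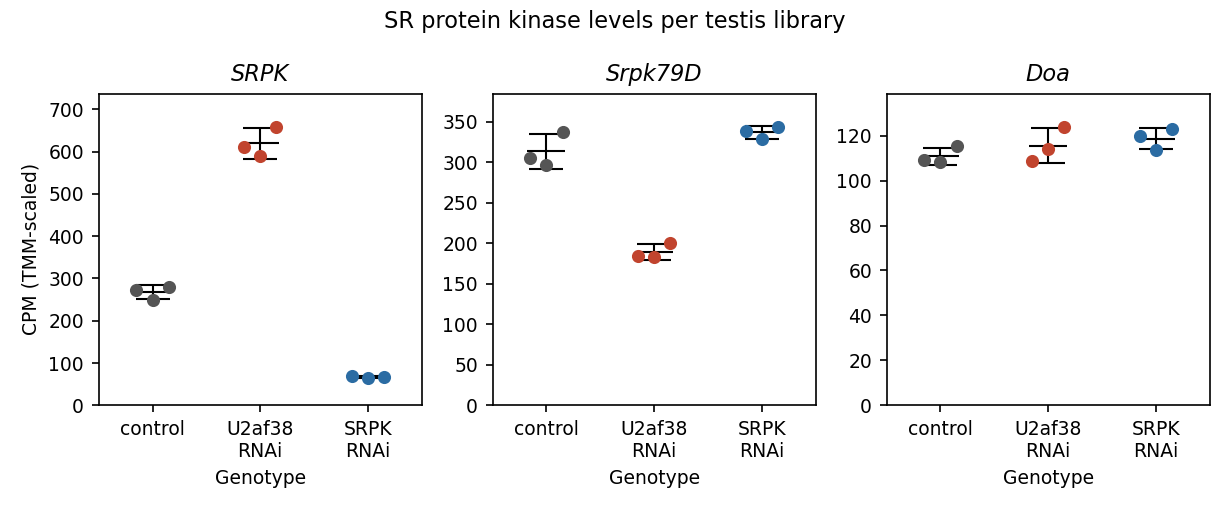
TMM-scaled CPM (vertical axis, starting at 0, with its own range for each gene) of *SRPK*, *Srpk79D* and *Doa* in the 3 libraries of each genotype (points), with the mean and SD (bars). *SRPK* ran from 64.5 to 69.0 CPM in *SRPK* RNAi to between 589 and 658 CPM in *U2af38* RNAi, *Srpk79D* was lowest in *U2af38* RNAi at 183 to 200.1 CPM, and *Doa* lay between 108 and 124 CPM in all 9 libraries.

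The first question was whether the related kinases changed when *SRPK* was knocked down. Neither *Srpk79D* nor *Doa* passed the test in *SRPK* RNAi. Of these 2 kinases, 0 were called by edgeR, 0 had an unadjusted p below 0.05 and 0 were called by DESeq2, while 41.4% of all tested genes were called in this comparison (20.3% higher, 21.1% lower). The 3 control libraries held *Srpk79D* at 306, 297 and 338 CPM and the *SRPK* RNAi libraries at 339, 328 and 344 CPM. The ranges overlapped, since the third control library reached the level of the knockdown libraries. The log2 fold change was 0.10 (SE 0.06, 95% interval -0.03 to 0.24, adjusted p = 0.197), so that the interval allows between 0.980 and 1.18 times the control level. Without the third control the value was 0.17 and passed the threshold (adjusted p = 0.0459).

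For *Doa* the control values were 109, 108 and 115 CPM, against 119.7, 113 and 123 CPM after *SRPK* knockdown. These ranges overlapped as well, by the lowest knockdown library. The log2 fold change was 0.10 (SE 0.06, 95% interval -0.03 to 0.22, adjusted p = 0.196), which allows between 0.982 and 1.17 times the control level. With libraries scaled on their size alone, both kinases passed the test, *Srpk79D* at 0.22 (adjusted p = 0.00658) and *Doa* at 0.21 (adjusted p = 0.00918), while the median of all genes moved from 0.01 to 0.12. Both intervals given above hold for TMM scaling only.

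The second comparison set the related kinases beside the rise of *SRPK* in *U2af38* RNAi. Of the 3 kinases, 1 rose, 1 fell and 1 was not called, and 82.2% of all tested genes were called in this comparison (44.7% higher, 37.5% lower). The rise of *SRPK* was known from these data when the kinases were chosen, so its p-value is no independent support. *SRPK* rose by a log2 fold change of 1.21 (SE 0.06, 95% interval 1.07 to 1.35, adjusted p = 2.92e-09, edgeR). A higher value was found for 24.5% of the tested genes.

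*Srpk79D* moved the other way. Its values in *U2af38* RNAi were 184, 183 and 200.1 CPM, below each control, which is 60.3% of the control level (log2 fold change -0.73, SE 0.06, 95% interval -0.86 to -0.60, adjusted p = 2.39e-07). A larger fall was seen for 27.0% of the tested genes. The spermatid markers fell in the same libraries, with a median log2 fold change of -1.54 over the 11 genes, and their part in the fall of *Srpk79D* was not tested. *brp*, which encodes Bruchpilot, had 34.3, 32.4 and 36.3 CPM in control testes and fell to 6.32, 5.75 and 8.83 CPM after *U2af38* knockdown (log2 fold change -2.30, adjusted p = 1.19e-08, edgeR). It belongs to a list of 5 neuronal markers given below, of which 2 rose and 2 fell in this comparison, where 37.5% of all tested genes fell. In *SRPK* RNAi *brp* was not called (log2 fold change -0.20, adjusted p = 0.257, edgeR). A link between *brp* and *Srpk79D* in these data was not tested.

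*Doa* values after *U2af38* knockdown were 109, 114 and 124 CPM, within and just above the control range. Its log2 fold change was 0.06 (SE 0.06, 95% interval -0.07 to 0.18, adjusted p = 0.350). The direction for *Doa* depended on the scaling. It was called higher at 0.70 with library size alone and at 0.36 with upper quartiles, and called lower at -0.37 with ribosomal protein genes as the reference. *SRPK* was called higher under all 5 scalings, from 0.78 to 1.85. *Srpk79D* was negative under all 5, from -1.16 to -0.09, and was called under every one except library size alone (adjusted p = 0.141).

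These shifts followed the median of all genes, which lay at 0.12 with TMM, 0.76 with library size alone, 0.42 with upper quartiles and -0.32 with ribosomal protein genes. Of the genes called, 54.3%, 73.4%, 64.5% and 38.3% were higher under the same scalings. The distance of a kinase from that median was 1.09 for *SRPK*, -0.85 for *Srpk79D* and -0.06 for *Doa*. This distance is nearly the same under any scaling by construction, because a scaling adds about the same amount to every gene.

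**Figure D2:**
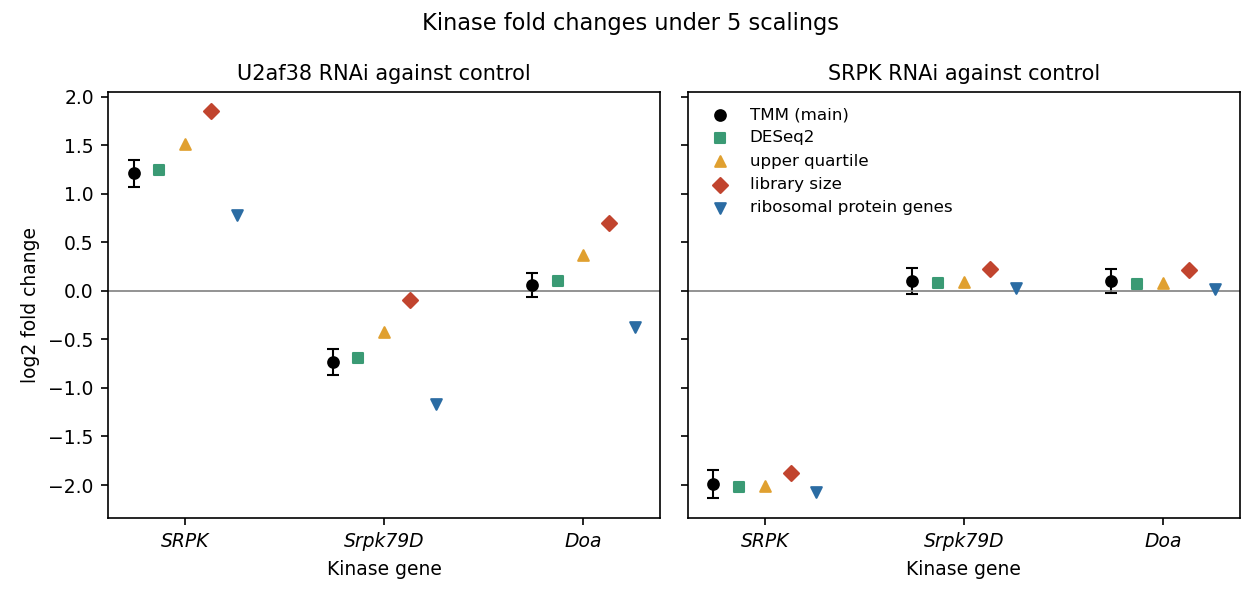
Log2 fold change against control (vertical axis) of each kinase in *U2af38* RNAi (left) and *SRPK* RNAi (right) under 5 scalings, one symbol per scaling, with the 95% interval on the TMM value. In *U2af38* RNAi the symbols shift together, and *Doa* runs from -0.37 to 0.70, whereas in *SRPK* RNAi *Srpk79D* and *Doa* stay between 0.02 and 0.22.

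The knockdowns were also compared directly, with 79.9% of all tested genes called (42.3% higher and 37.6% lower in *U2af38* RNAi). *SRPK* stood 9.21 times higher in *U2af38* RNAi than in *SRPK* RNAi (log2 fold change 3.20, adjusted p = 7.71e-12). *Srpk79D* was lower in *U2af38* RNAi than in *SRPK* RNAi by a log2 fold change of -0.83 (adjusted p = 8.03e-08), and did not change sign under any scaling. *Doa* differed by -0.04 (95% interval -0.16 to 0.09, adjusted p = 0.544), with a sign that again turned with the scaling, between -0.39 and 0.48.

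Levels of different genes can be compared only per length, and CPM was therefore divided by the merged exon length in kb. In control testes *Srpk79D* and *SRPK* had about the same level, at 50.3 ± 3.45 and 48.3 ± 3.07 CPM per kb (SD, n = 3). *SRPK* was higher than *Srpk79D* in 1 of the 3 control libraries and lower in the other 2, so their order was not set beyond the spread with this length. With the longest annotated transcript as the length, *Srpk79D* was the higher in all 3 controls, at 65.8 against 52.2 CPM per kb, and the ratio of *SRPK* to *Srpk79D* was 0.832, 0.778 and 0.773. Both lay above 82.3% or more of the tested genes. *Doa* followed at 8.13 ± 0.278 CPM per kb, above 53.9% of the tested genes. The value for *Doa* rests on the choice of length, and with its longest annotated transcript it was 15.2 CPM per kb, still the lowest of the 3.

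In *U2af38* RNAi the order was *SRPK* at 111.8 ± 6.44, *Srpk79D* at 30.3 ± 1.53 and *Doa* at 8.47 ± 0.569 CPM per kb, with no overlap between neighbours. *SRPK* then stood above 95.0% of the tested genes. In *SRPK* RNAi *Srpk79D* led at 54.1 ± 1.25 CPM per kb, ahead of *SRPK* at 12.1 ± 0.434 and *Doa* at 8.70 ± 0.353 CPM per kb. The order of *SRPK* and *Doa* in *SRPK* RNAi turned when the longest transcript was used as the length, at 13.1 and 16.2 CPM per kb.

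The summed level of the 3 kinases was 106.4, 100.4 and 113 CPM per kb in control. It reached 147.7, 144 and 160.0 CPM per kb with *U2af38* knocked down and 75.6, 72.7 and 76.5 CPM per kb with *SRPK* knocked down, so the genotypes did not overlap with TMM scaling. The difference from control was 43.9 ± 6.12 (SE) for *U2af38* RNAi and -31.8 ± 3.91 (SE) for *SRPK* RNAi. With 3 libraries against 3, a two-sided exact permutation test cannot give a p below 0.1, and it gave p = 0.1 for both. Unlike the shares, the sum depends on the scaling between libraries. With ribosomal protein genes as the reference, the sums in *U2af38* RNAi, at 115.8 to 140.2 CPM per kb, overlapped those of control, at 112.3 to 127 CPM per kb, and the log2 ratio of the means went from 0.50 to 0.06. The *SRPK* RNAi sums lay below control under all 5 scalings, by a log2 ratio of -0.59 to -0.39. *SRPK* itself, the target of that knockdown, went from 48.3 to 12.1 CPM per kb. A lower sum was thus built in and is no separate result. These scalings of the sum were chosen after seeing the data.

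Shares of this sum and ratios between kinases are taken within a library and do not depend on the scaling between libraries. *SRPK* made up 46.4%, 44.6% and 44.7% of the sum in control, 74.6%, 73.8% and 74.3% with *U2af38* knocked down and 16.5%, 16.02% and 16.1% with *SRPK* knocked down. *Srpk79D* made up 47.1 ± 0.914% in control, 20.2 ± 0.202% in *U2af38* RNAi and 72.2 ± 0.310% in *SRPK* RNAi (SD, n = 3). *Doa* accounted for the rest, 7.62 ± 0.250%, 5.62 ± 0.221% and 11.6 ± 0.170%. No share overlapped between genotypes (exact permutation p = 0.1 for each pair, the smallest possible). A share falls when another member rises, so these values describe the makeup of the sum and not independent changes. In *SRPK* RNAi the lower *SRPK* share follows from the knockdown of that gene.

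**Figure D3:**
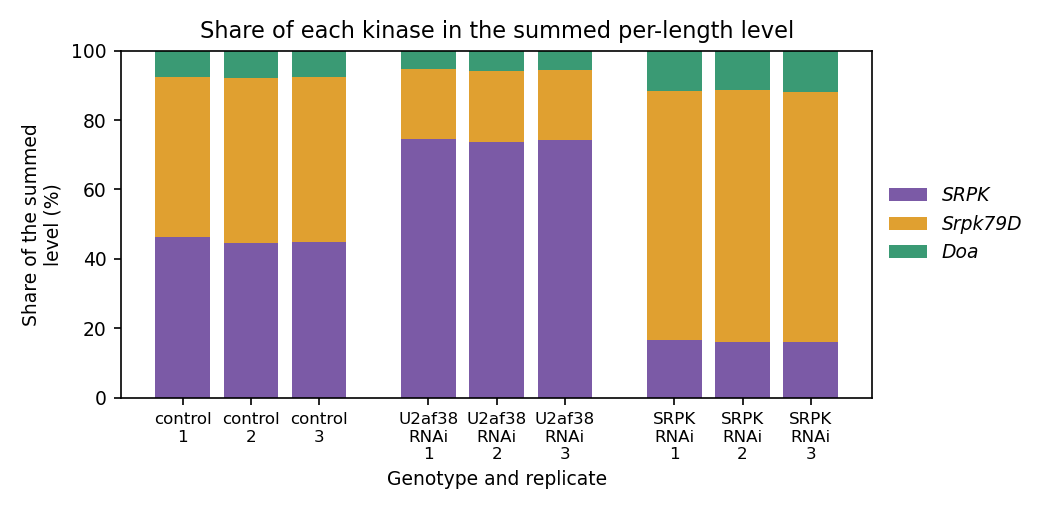
Share (%) of *SRPK*, *Srpk79D* and *Doa* in their summed level in CPM per kb of merged exon, one bar per library. *SRPK* fills 44.6 to 46.4% of the bar in control, 73.8 to 74.6% in *U2af38* RNAi and 16.02 to 16.5% in *SRPK* RNAi, and *Srpk79D* takes the largest share in *SRPK* RNAi.

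The ratio of *SRPK* to *Srpk79D* was 1.01, 0.940 and 0.935 in control. The *U2af38* RNAi libraries gave 3.73, 3.62 and 3.70 and the *SRPK* RNAi libraries 0.229, 0.221 and 0.223. On the log2 scale the difference from control was 1.94 (SE 0.04) for *U2af38* RNAi and -2.10 (SE 0.04) for *SRPK* RNAi. Each had exact permutation p = 0.1. The difference for *SRPK* RNAi contains the knockdown of *SRPK* itself and is no separate result. The ratio of *Doa* to *Srpk79D* was 0.163, 0.167 and 0.156 in control and 0.161, 0.158 and 0.163 in *SRPK* RNAi. It overlapped between these genotypes, with a log2 difference of -0.0087 (SE 0.03, exact permutation p = 0.9). In *U2af38* RNAi the same ratio was 0.269, 0.285 and 0.283, above each control, a log2 difference of 0.79 (SE 0.04, exact permutation p = 0.1).

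The genes with the profiles nearest to each kinase over the libraries were listed. Likeness was measured as the root mean square distance between centred log2 CPM profiles among the 7996 genes that averaged 10 CPM or more. For *SRPK* it was taken over the 6 control and *U2af38* RNAi libraries, since its level in *SRPK* RNAi was set by the knockdown. The nearest genes were *Upf1*, the helicase of nonsense-mediated decay (distance 0.031), *mars*, which encodes a mitotic spindle protein (0.034), and *CG43347* (0.037). In *SRPK* RNAi, which the measure did not use, *Upf1* stood at 140.2 ± 7.84 CPM against 96.9 ± 4.77 CPM in control (SD, n = 3). The log2 difference was 0.53.

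Over all 9 libraries, the genes nearest to *Srpk79D* were *Evi5*, which encodes a Rab GTPase-activating protein (0.037), *prage* (0.042) and *CG6664* (0.043). *prage* was measured at 326 ± 15.1 CPM in control, 201 ± 5.77 CPM in *U2af38* RNAi and 351 ± 19.6 CPM in *SRPK* RNAi. For *Doa* they were *Dhc64C*, the heavy chain of cytoplasmic dynein (0.040), *Spps* (0.043) and *bisc* (0.046), with log2 differences from control between 0.02 and 0.14 in the knockdowns. These distances are a description over few libraries and carry no test. No reference distance was taken from other genes, so how unusual they are is not known.

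The substrates of the kinases were examined next, in a list of 9 SR proteins. In *SRPK* RNAi 3 of the 9 rose, 1 fell and 5 were not called, with a median log2 fold change of 0.14 against 0.01 over all genes. Over all tested genes 20.3% rose and 21.1% fell in this knockdown, so the share of the list that was called lay near the background. *B52*, which encodes an abundant SR protein, rose from between 84.2 and 93.6 CPM to between 114 and 137 CPM (log2 fold change 0.51, adjusted p = 0.000142). *tra2*, the partner of Transformer in *doublesex* splicing, rose by 0.40 (adjusted p = 0.00335). *x16* had a log2 fold change of 0.03 (adjusted p = 0.810).

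In *U2af38* RNAi 4 of the 9 rose, 1 fell and 4 were not called, with a median of 0.23 against 0.12 over all genes, of which 44.7% rose and 37.5% fell. *B52* rose by 0.78 (adjusted p = 4.6e-07) and *x16* by 0.49 (adjusted p = 3.96e-05), which was 0.05 and not called with ribosomal protein genes. *tra2* fell by 0.51 (adjusted p = 0.000157), in a direction that turned to 0.12 with library size alone. The counts for this list also moved with the scaling in *U2af38* RNAi, from 8 higher and 0 lower with library size alone to 1 higher and 4 lower with ribosomal protein genes. Both knockdowns were compared with the same control libraries.

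Among 11 other factors with an arginine-serine domain, which bind RNA or bridge splicing complexes, 7 rose in *SRPK* RNAi, 0 fell and 4 were not called. Their median was 0.30 against 0.01 over all genes, of which 20.3% rose and 21.1% fell, and between 6 and 9 rose under the 5 scalings. *Son*, which encodes a nuclear speckle protein, rose by 0.42 (adjusted p = 0.00011). *U2af38* was read at 53.5, 50.3 and 47.5 CPM in *SRPK* RNAi, each above the controls, without passing the test with TMM (log2 fold change 0.32, adjusted p = 0.0594), although it was called higher under 2 of the 5 scalings. *Pnn* had a log2 fold change of 0.19 (adjusted p = 0.121) and was called under 1 of the 5. The largest value in this list was that of *Srrm234*, singled out after its values were seen, which rose from between 76.3 and 81.3 CPM to between 139 and 154 CPM (log2 fold change 0.87, adjusted p = 5.26e-07). In *U2af38* RNAi 6 of the 11 rose, 1 fell and 4 were not called (median 0.46 against 0.12 over all genes). Of all tested genes 44.7% rose and 37.5% fell. The 1 that fell was *U2af38* itself, the target of that knockdown, which is no separate result. With ribosomal protein genes as the reference 5 rose and 5 fell. *Pnn* rose by 1.04 (adjusted p = 3.73e-07) and *Son* by 0.97 (adjusted p = 5.93e-09), both higher under all 5 scalings.

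The other kinases of the CMGC group, to which all 3 SR protein kinases belong, formed a list of 25. In *SRPK* RNAi 9 rose, 2 fell and 14 were not called (median 0.08 against 0.01 over all genes). Of all tested genes 41.4% were called, 20.3% higher and 21.1% lower, so the calls in the list leaned to higher. With ribosomal protein genes as the reference 5 rose and 3 fell. The called changes in this list ran from -0.30 to 0.58. In *U2af38* RNAi 8 rose, 10 fell and 7 were not called (median -0.10 against 0.12 over all genes, of which 82.2% were called), which became 16 higher and 5 lower with library size alone and 4 higher and 16 lower with ribosomal protein genes. *Cdk4*, a cyclin-dependent kinase of growth and the cell cycle, rose from between 1.40 and 1.88 CPM to between 34.0 and 34.7 CPM with *U2af38* knocked down (log2 fold change 4.41, adjusted p = 1.18e-11). The stress-activated kinase gene *p38a* fell by 1.11 (adjusted p = 1.37e-08), whereas *p38c*, at 0.776 to 1.82 CPM in control, rose by 1.44 (adjusted p = 0.000355). In *SRPK* RNAi none of these 3 was called by edgeR with TMM, at 0.04 for *Cdk4* (adjusted p = 0.872), -0.18 for *p38a* (adjusted p = 0.0544) and -0.21 for *p38c* (adjusted p = 0.609). *p38a* was called lower in that knockdown under 3 of the 5 scalings, with values from -0.26 to -0.06 over all 5.

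Phosphatases that can remove the phosphate from SR proteins, their regulators and the import receptors formed the last list, of 12 genes. In *SRPK* RNAi 5 rose, 1 fell and 6 were not called (median 0.08 against 0.01), with 20.3% of all tested genes higher and 21.1% lower. In *U2af38* RNAi 8 rose and 4 fell (median 0.43 against 0.12), with 44.7% of all tested genes higher and 37.5% lower, which became 4 higher and 4 lower with ribosomal protein genes. The catalytic subunits of protein phosphatase 1 went in different directions. *Pp1alpha-96A* rose by 1.02 (adjusted p = 3.08e-09) and *Pp1-87B* by 0.88 (adjusted p = 1.06e-08), whereas *flw* fell by 0.89 (adjusted p = 3.42e-07), each with the same sign under all 5 scalings. *Pp1-13C*, singled out after its values were seen, fell by 0.79 (adjusted p = 8.67e-08, edgeR), also with the same sign under all 5. In *SRPK* RNAi *Pp1alpha-96A* rose by 0.19 (adjusted p = 0.0154) and *Pp1-87B* by 0.24 (adjusted p = 0.00388), and *flw* had a value of -0.15 (adjusted p = 0.141). Of these, *Pp1alpha-96A* was called under 4 of the 5 scalings and *flw* under 1. *Pp1-13C* was the 1 gene of the list that fell in *SRPK* RNAi, by 0.21 (adjusted p = 0.0122, edgeR). With library size alone 0 genes of the list were called lower in that knockdown. *Tnpo-SR*, the import receptor of phosphorylated SR proteins, was singled out for that role after its values were seen. Its control level was 16.9, 14.1 and 14.7 CPM, and it rose to between 21.6 and 23.5 CPM in *SRPK* RNAi (log2 fold change 0.55, adjusted p = 0.000232) and to between 19.96 and 21.3 CPM with *U2af38* knocked down (log2 fold change 0.44, adjusted p = 0.000288). With ribosomal protein genes as the reference the value in *U2af38* RNAi was 0.0023 and was not called.

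**Figure D4:**
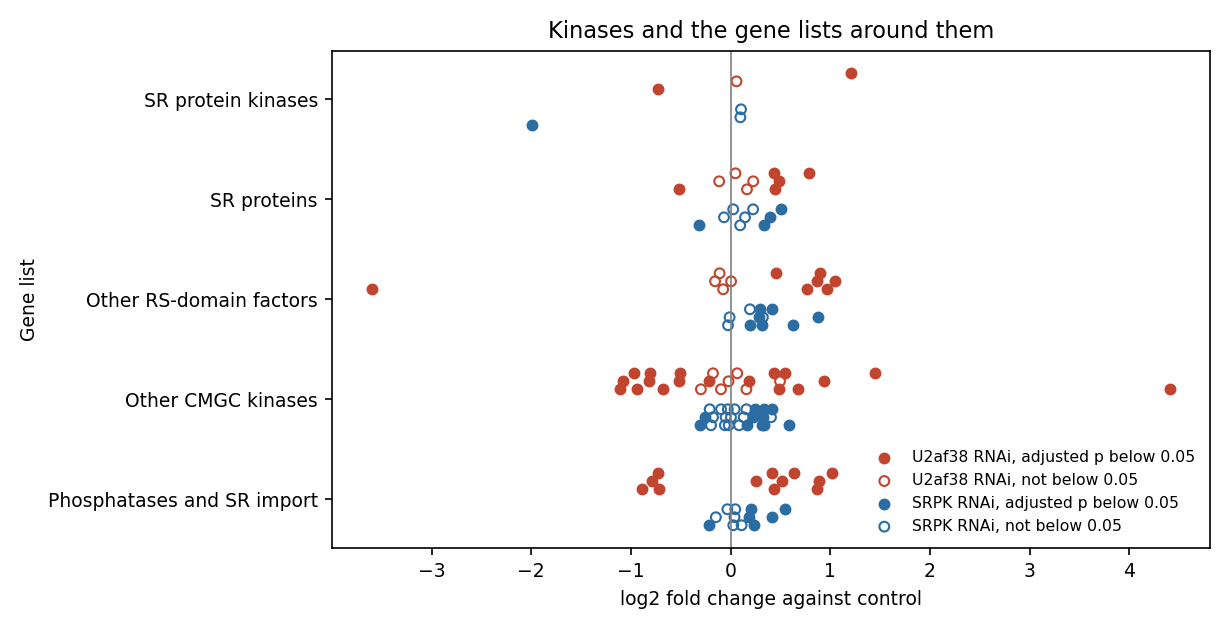
Log2 fold change against control (horizontal axis) of the 3 kinases and of each gene in the 4 lists around them, for *U2af38* RNAi (red) and *SRPK* RNAi (blue), filled where the adjusted p was below 0.05. The blue points other than *SRPK* at -1.99 stay between -0.31 and 0.87, whereas the red points run from *U2af38* at -3.59 to *Cdk4* at 4.41.

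Markers of the cell types in the dissected tissue were read beside the kinases. Over all tested genes, 41.4% were called for *SRPK* RNAi and 82.2% for *U2af38* RNAi. In *SRPK* RNAi all 5 muscle sheath markers fell, with a summed level of 295 to 460 CPM against 481 to 706 CPM in control, and 5 of the 11 spermatid markers fell, whereas *p-cup* rose by 0.17 (adjusted p = 0.029), a call made under 3 of the 5 scalings. In *U2af38* RNAi 3 of the 5 muscle sheath markers fell and 0 rose, which became 0 lower and 1 higher with library size alone and with upper quartiles. Of 9 spermatocyte markers 4 rose and 1 fell in *SRPK* RNAi, and 3 rose and 3 fell in *U2af38* RNAi. The latter count was not settled, with 8 higher and 1 lower under library size alone and 1 higher and 6 lower under ribosomal protein genes. Of 4 spermatogonial markers 2 rose in *SRPK* RNAi, and 1 rose and 1 fell in *U2af38* RNAi. Of 4 cyst cell markers 1 rose and 1 fell in *SRPK* RNAi, and 1 rose and 2 fell in *U2af38* RNAi. In *U2af38* RNAi these counts moved with the scaling too, from 3 higher and 1 lower (spermatogonial) and 2 higher and 1 lower (cyst) with library size alone to 0 higher and 3 lower for both with ribosomal protein genes. The 2 accessory gland genes that could be tested were not called in either knockdown. Among the hub markers, which mark the somatic niche, *upd1* was lower in both knockdowns, at -1.66 in *SRPK* RNAi (adjusted p = 3.23e-08) and -1.71 in *U2af38* RNAi (adjusted p = 3.64e-10). *Fas3* rose by 0.25 in *SRPK* RNAi (adjusted p = 0.0305, called under 4 of the 5 scalings) and fell by 0.51 in *U2af38* RNAi (adjusted p = 0.000129), where its sign turned to 0.13 with library size alone. *CadN* fell by 0.41 in *SRPK* RNAi (adjusted p = 0.00197) and had a value of -0.12 in *U2af38* RNAi (adjusted p = 0.184), where the scalings ran from -0.56 to 0.51. No tested marker was at 0 counts, and the accessory gland gene *SP*, which did not pass the filter, was at 0 in 1 control and 1 *U2af38* RNAi library. The part of these cell types in the kinase values was not tested.

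Neuronal genes were listed because *Srpk79D* is known from neurons. Of all tested genes, 44.7% rose and 37.5% fell in *U2af38* RNAi, and 20.3% rose and 21.1% fell in *SRPK* RNAi. Of 5 neuronal markers 2 rose and 2 fell in *U2af38* RNAi, and in *SRPK* RNAi 1 rose and 4 were not called. The 1 that rose, *para*, was called under 3 of the 5 scalings. The *U2af38* RNAi count went from 4 higher and 1 lower with library size alone to 2 higher and 3 lower with ribosomal protein genes. In control testes *elav*, the defining neuronal marker, was read at 3.80 to 5.85 CPM. *para*, a sodium channel gene, rose from between 2.67 and 2.86 CPM to between 41.9 and 54.3 CPM with *U2af38* knocked down (log2 fold change 4.05, adjusted p = 2.92e-11), and *Syt1*, which encodes synaptotagmin, rose by 3.36 (adjusted p = 6.63e-11). *brp* fell, as given above, and *nSyb*, which encodes synaptobrevin, fell by 0.33 with TMM (adjusted p = 0.00279), but had a value of -0.02 and was not called with upper quartiles and stood at 0.31 with library size alone. *elav* itself had a log2 fold change of -0.02 (adjusted p = 0.915), and the scalings ran from -0.46 to 0.61.

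Genes on the opposite strand also lay over the kinase loci. The antisense RNA gene asRNA:CR45960 (chr3L:22274083-22275716, minus strand) overlaps *Srpk79D* near its start. Its values were 2.81, 2.10 and 2.45 CPM among controls and 0.205, 0.260 and 0.121 CPM with *U2af38* knocked down. The log2 fold change was -3.61 (adjusted p = 3.68e-06, edgeR), negative under all 5 scalings. In the third *U2af38* RNAi library the antisense RNA was at the floor of 3 fragments, so the size of its fall rests on few fragments. In *SRPK* RNAi it stood at 1.54, 2.83 and 3.61 CPM (log2 fold change 0.11, adjusted p = 0.801). Both the antisense RNA and *Srpk79D* were called lower in *U2af38* RNAi, where 37.5% of all tested genes were, and a relation between them was not tested. *dup*, a replication licensing gene on the strand opposite *SRPK*, fell by 0.61 in *U2af38* RNAi (adjusted p = 0.000119), except with library size alone, where it had a value of 0.03.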

How the data were processed

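Per the labels, total RNA of dissected testes was extracted with TRIzol and made into KAPA RNA HyperPrep libraries with RiboErase. Reads were mapped by the authors to dm6 (STAR 2.7.1a). The values the authors deposited are raw counts, made by featureCounts 1.6.2 as fragments assigned to each gene of FlyBase release 6.37 with the strand setting 2, and carry no normalization. Each of the 9 libraries had 2 lanes, which were summed here, and 0 columns were left unmatched. Gene symbols were matched for 17512 of 17575 identifiers.

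Genes were filtered with filterByExpr by genotype, scaled by TMM and compared by the quasi-likelihood test of edgeR 4.0.16 in R 4.3.3, with p-values adjusted by Benjamini-Hochberg over 14941 genes (threshold 0.05), in one model of 9 libraries without a block. SEs were derived from the log2 fold change and its F statistic. Depths per library give a precision set by the spread between replicates (common dispersion 0.0153), and 3 fragments were taken as the floor, which covers counting error only. The replicates are labelled biological, from pooled animals. The scripts were tested on simulated data with few changed genes, as many up as down, which does not cover the dependence on scaling seen here. Alternatives were DESeq2 1.42.0, other count filters (a minimum of 10 in every library, or none), other scalings, single lanes, another gene length, a replicate block and leaving out each library. Lists were described by counts and medians, and in each of the 4 lists around the kinases the 3 genes with the largest absolute log2 fold change in either knockdown, among those called in either, were named with their values in both. Cell type markers and the genes so marked were named after their values were seen. The kinases and the lists were chosen with earlier results of these data known. Aligned reads, and with them splicing, were not analysed here, and no sequence is shown.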

Additional observations from a re-analysis of the deposited data

How the results depend on the processing

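The rise of *SRPK* in *U2af38* RNAi and its fall in *SRPK* RNAi passed the test under every alternative run, at 1.16 to 1.25 and -2.03 to -1.95 with each library left out in turn. For *Srpk79D* in *U2af38* RNAi the corresponding range was -0.78 to -0.67, and library size alone gave -0.092 (adjusted p = 0.141). *Doa* in *U2af38* RNAi gave 0.24 with at least 10 counts in every library (adjusted p = 0.00153), 0.70 with library size alone, 0.36 with upper quartiles and -0.37 with ribosomal protein genes. In *SRPK* RNAi, library size alone gave 0.22 for *Srpk79D* and 0.21 for *Doa*, and leaving out libraries gave 0.078 to 0.17 and 0.077 to 0.14. Between the knockdowns *Doa* gave 0.024 with DESeq2, 0.14 with at least 10 counts, 0.48 with library size alone, 0.28 with upper quartiles, -0.39 with ribosomal protein genes and 0.0012 and 0.042 from lanes 1 and 2. Library size alone left 3451 genes called lower in *U2af38* RNAi against control and 3470 against *SRPK* RNAi, from 5606 and 5622. The cause of these shifts was not tested beyond the median of all genes. With the longest transcript as length, control, *U2af38* RNAi and *SRPK* RNAi gave 52.2, 120.9 and 13.1 CPM per kb (39.2%, 68.5% and 13.1% of the sum) for *SRPK*, 65.8, 39.7 and 70.7 (49.4%, 22.5% and 70.7%) for *Srpk79D* and 15.2, 15.8 and 16.2 (11.4%, 8.96% and 16.2%) for *Doa*. Lanes 1 and 2 of *SRPK* RNAi gave 16.5% and 15.9% for *SRPK* and 71.9% and 72.6% for *Srpk79D*.

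The log2 ratio of *Doa* to *Srpk79D* in *SRPK* RNAi against control lay between -0.036 and 0.013 with each library left out. Replicate numbers were not used to pair the samples. Same-numbered libraries had a mean correlation of 0.153, -0.112 and -0.277 in the 3 comparisons, with single values from -0.46 to 0.36. So few values cannot show whether same-numbered libraries shared a preparation. With the replicate block the kinases gave 1.21, -0.73 and 0.06 for *U2af38* RNAi and -1.99, 0.11 and 0.10 for *SRPK* RNAi (*SRPK*, *Srpk79D*, *Doa*), with no call changed for a kinase. The summed level of the 3 kinases, set against control for *U2af38* RNAi, against control for *SRPK* RNAi and between the knockdowns, gave log2 ratios of 0.50, -0.51 and 1.01, under alternatives chosen after seeing the data. These became 0.41, -0.41 and 0.82 with the longest transcript, 1.13, -0.39 and 1.53 with library size alone and 0.064, -0.59 and 0.65 with ribosomal protein genes, and upper quartiles gave 0.80 and 1.33 for the first and last.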
